A study of Mus musculus with 2 samples.

Results

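Cytosolic ribosomal protein genes encode the proteins of the large (Rpl) and small (Rps) subunits of the ribosome that translates nuclear transcripts. They were taken by gene symbol: every symbol made of Rpl or Rps followed by a digit, together with Rplp0, Rplp1, Rplp2 and Rpsa, without the Rps6k kinases and without pseudogenes marked -ps. This gave 87 members of the 27998 genes counted, 53 with large subunit and 34 with small subunit symbols; 10 Rps6k genes and 16 -ps pseudogenes were left out. The rule also takes in Rps19bp1, which encodes a protein that binds a ribosomal protein, and Rpl6l, which GENCODE M21 annotates as a processed pseudogene. The share of these genes among all non-mitochondrial UMIs, and the level of each member, were followed across cell types of the mouse submandibular gland, a major salivary gland.

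Glands from adults aged 12 weeks were dissociated whole and sequenced as single cells by the 10x Genomics 3' method, in which a unique molecular identifier (UMI) tags each captured transcript. The genotypes were p63 wild type (WT) and p63 knockout (KO), with 1 library each. The p63 protein, product of Trp63, regulates transcription in basal layers of epithelia. The labels do not state when, in which cells or by which allele p63 was removed, nor whether glands were pooled. The source of both libraries is labelled as epithelial progenitor cells, but endothelial, immune and red cells with their own defining markers were also found.

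Each ribosome holds 1 copy of nearly every one of these proteins, so cells make their transcripts in roughly matched amounts, and growing cells make many. The transcripts belong to the class that begins with a run of pyrimidines at the 5' end (terminal oligopyrimidine, TOP), through which the TOR kinase pathway controls their translation. In a secretory gland, ribosomes also make large amounts of saliva proteins, whose own transcripts can fill much of a cell's RNA. Some members have paralogues that are used mainly in testis or muscle, and several have retrogene copies.

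The sequences that bear on the counts are shown first. Rpl41, with most UMIs in the WT library, has the shortest coding sequence of all members, 78 bases or 25 codons before the stop, given here from GENCODE M21 (GRCm38, chromosome 10, 128548114 to 128549305, minus strand) in lower case throughout.
Rpl41: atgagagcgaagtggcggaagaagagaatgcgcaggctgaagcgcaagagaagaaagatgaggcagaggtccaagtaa
Rps27 (gene at chromosome 3, 90212522 to 90213651, minus strand) and its copy Rps27rt (chromosome 9, 114982366 to 114982739, minus strand) share a coding sequence of 255 bases with 0 differences, and the 54 bases that follow the stop codon of Rps27 are also the first 54 after that of Rps27rt. UMIs of this pair could not be told apart with certainty. The paralogue Rps27l has a coding sequence of the same length and 76.1% identity to that of Rps27.
Rps27 and Rps27rt: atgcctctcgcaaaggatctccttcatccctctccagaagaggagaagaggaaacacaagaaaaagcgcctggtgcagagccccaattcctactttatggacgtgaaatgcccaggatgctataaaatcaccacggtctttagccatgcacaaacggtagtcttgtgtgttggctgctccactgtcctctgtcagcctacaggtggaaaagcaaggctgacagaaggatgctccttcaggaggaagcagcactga

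The region around the start site was read from RefSeq promoters (GRCm38.p6), which matched 66 of the 87 members. A run of at least 8 consecutive C or T bases, searched on the transcribed strand only from 30 bases before to 20 after the annotated start, was present in 30 members (45.5%) and in 5400 of all 27025 promoters (20%). Among the elongation factors and other TOP class transcripts described below, 2 of 11 matched ones had it (18.2%). A run could lie wholly before the start, as in Rpl4 below, so it need not be the 5' end of the transcript. The stretch from 30 bases before to 10 after the start is shown for 3 members with a higher share of ribosomal protein UMIs in the KO library (Rpl38, Rps27, Rps28) and 3 with a lower one (Rpl4, Rpl7a, Rps4x), chosen after their values were seen; capitals mark the longest run of C and T bases where it has 5 or more.
Rpl38, chr11:114668550-114668589, plus strand: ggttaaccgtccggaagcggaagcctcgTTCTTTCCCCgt
Rps27, chr3:90213639-90213678, minus strand: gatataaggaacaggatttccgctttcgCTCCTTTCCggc
Rps28, chr17:33824553-33824592, minus strand: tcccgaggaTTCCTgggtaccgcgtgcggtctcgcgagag
Rpl4, chr9:64173357-64173396, plus strand: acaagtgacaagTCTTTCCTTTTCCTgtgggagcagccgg
Rpl7a, chr2:26910777-26910816, plus strand: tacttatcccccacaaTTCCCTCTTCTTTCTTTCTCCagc
Rps4x, chrX:102189382-102189421, minus strand: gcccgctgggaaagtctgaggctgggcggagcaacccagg
The run was 10 bases long in Rpl38, 14 in Rpl4 and 21 in Rpl7a, and no run reached 8 bases in Rps28 or Rps4x, so both directions held members with and without it. Of the members whose interval lay above 1 in all 6 compared cell classes (described below), 3 of 6 matched ones had such a run; of those whose ratio was below 1 in all 6, 7 of 16 did.

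The deposited barcodes numbered 1970 in the WT library, with 8811082 UMIs, and 4726 in the KO library, with 11828669. The limits for a cell were 200 genes or more and a mitochondrial share below 20%, which left 1663 WT and 2423 KO cells with medians of 3406 and 2088 UMIs. Trp63 had 149 UMIs in kept WT and 20 in kept KO cells, or 19.9 and 3.17 counts per 1e6 non-mitochondrial UMIs (CPM); the labels do not say whether the deletion removed the 3' end that is counted. The libraries shared 11 barcodes, of which 7 were kept in both. With 1 library per genotype there was no replicate and no test: the KO over WT ratio of summed UMIs is given with its exact 95% Poisson interval and shares with exact binomial intervals. These intervals hold counting error and nothing else. They narrow as UMIs rise, so abundant members clear 1 at smaller ratios than rare genes do. Counts of intervals beyond 1 are therefore not like for like with the shares over all genes. A gene with 50 or more UMIs over the pair of libraries passed a size rule where its whole interval lay beyond 2-fold.

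Ribosomal protein transcripts were a large part of the RNA counted in both libraries. Kept cells held 1338527 ribosomal protein UMIs in the WT and 1051973 in the KO library, 17.9% (17.84 to 17.90%) and 16.7% (16.65 to 16.70%) of non-mitochondrial UMIs. Single cells ranged from 1.13 to 56.4% in the WT library, with a median of 19.1%, and from 0.771 to 48.2% in the KO library, with a median of 16.8%. Barcodes that were left out had lower shares, 7.77 and 9.40%. Of the 87 members, 85 were detected in WT and 86 in KO cells, 84 reached 50 UMIs over both libraries, and Rpl10l, a testis paralogue of Rpl10, had 0 UMIs in both.

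No single member dominated the total. The 10 most abundant members held 24.6% of ribosomal protein UMIs in the WT and 25.3% in the KO library. Over both libraries most UMIs were counted for Rpl41, Rps27, Rps14, Rps19 and Rpl13. Rpl41 had 5439 CPM in WT and 4927 in KO cells, Rps19, a small subunit protein mutated in Diamond-Blackfan anaemia, 4930 and 3727, and Rps27 4011 and 6457. Rps27 was thus the most abundant member in the KO but not in the WT library. The fewest UMIs among members with at least 50 were those of Rps27rt, Rpl6l, Rps19bp1 and Rpl7l1; Rpl7l1, a paralogue of Rpl7, stood at 31.6 and 22.03 CPM. In 3' tag data a transcript gives 1 tag whatever its length, so these levels were not divided by length.

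Cells were clustered in each library on its own, with the members, mitochondrial genes and Trp63 left out of the variable genes, and clusters were called "X-like" from marker genes. The WT library gave 15 clusters in 13 classes and the KO library 18 clusters, of which 17 fell into 14 classes and 1, with 171 cells and led by Jchain and Sprr1a, stayed unnamed. Basal duct-like cells (Krt14, Krt17), the cells that line the outside of ducts, had the highest ribosomal protein share of the WT library, 32.9% (32.9 to 33.0%) over 393 cells. NK or innate lymphoid-like cells followed with 30.9% (30.6 to 31.2%, 43 cells) and cycling-like cells (Top2a, Ube2c) with 30.6% (30.4 to 30.7%, 60 cells). The top 3 thus joined a basal epithelial, a lymphoid and a dividing population, and the next class, Smgc acinar-like cells, stood at 20.9%. The cycling-like class was found in the WT library only.

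In the KO library NK or innate lymphoid-like cells led with 35.2% (34.9 to 35.5%, 93 cells). Basal duct-like cells came next with 25.8% (25.7 to 25.9%, 111 cells), followed by Smgc acinar-like cells with 25.1% (24.9 to 25.2%, 140 cells). The last pair differed by less than the spread between cells, whose SD was 4.49 percentage points in basal duct-like and 6.31 in Smgc acinar-like cells. Classes in the middle of the order lay close together in both libraries. Myoepithelial-like, endothelial-like and macrophage-like WT cells had 20.3, 20.2 and 18.5%, intercalated duct-like and ionocyte-like WT cells 17.5% each. In the KO library the intercalated duct-like, endothelial-like, myoepithelial-like, fibroblast-like, ionocyte-like and adipocyte-like classes lay between 16.1 and 19.1%, and a cluster of 264 myeloid cells at 14.5%. The marker rule named that cluster neutrophil-like, but Ccl4, Ccl3, Cd74 and H2-Aa stood beside S100a8 and S100a9 among its leading genes, and at resolution 2 the KO library held 117 neutrophil-like and 149 macrophage-like cells in its place, so it is called here the Ccl4 and S100a8 cluster.

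**Figure D1:**
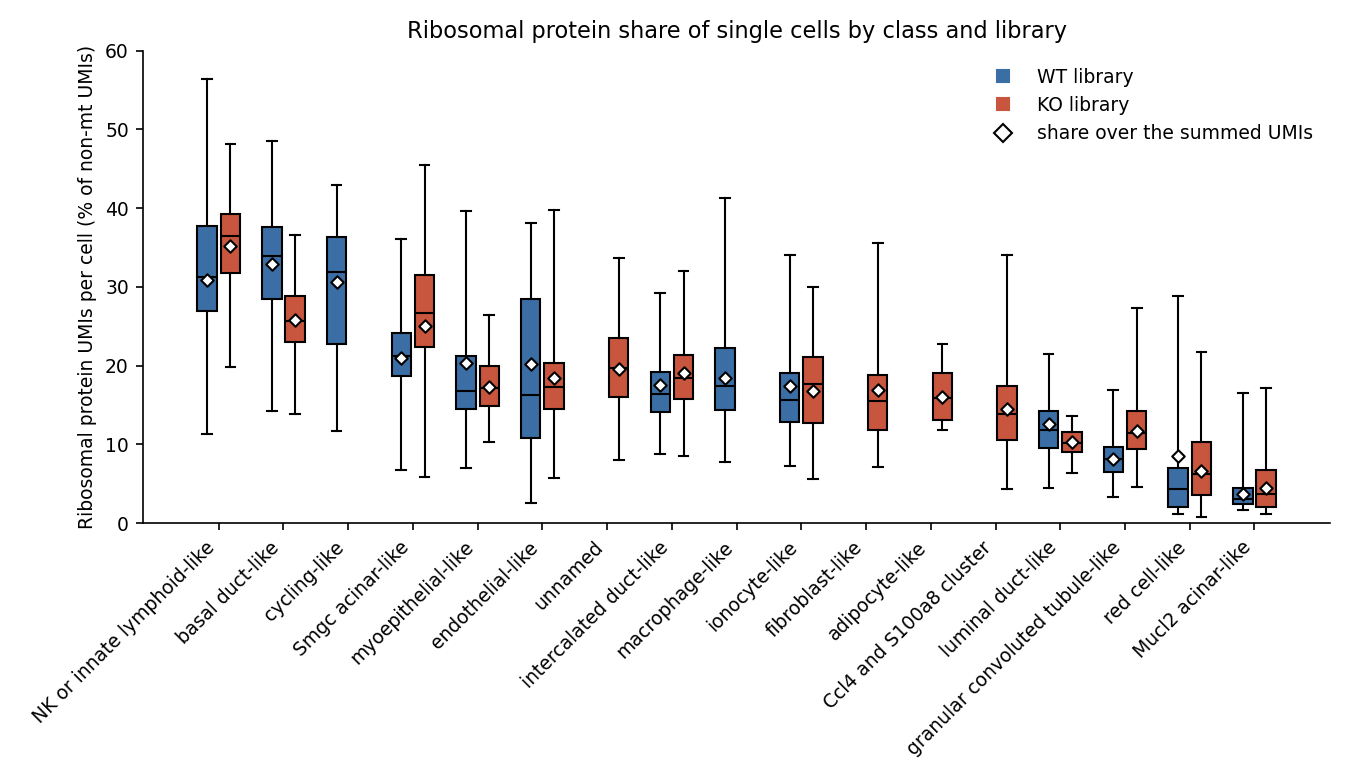
Ribosomal protein share of non-mitochondrial UMIs per cell (y axis, %) by cell class (x axis) in the WT and KO libraries; boxes give the quartiles and median over cells, whiskers the lowest and highest cell, diamonds the share over the summed UMIs. By share over the summed UMIs, NK or innate lymphoid-like and basal duct-like cells lie highest in both libraries and Mucl2 acinar-like cells lowest; the basal duct-like median is 33.9% in WT and 25.6% in KO cells.

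Several classes with low shares were filled with a few other transcripts. Mucl2 acinar-like cells, which make secretoglobins and the mucin-like protein Mucl2, had 3.74% (3.71 to 3.77%) in the WT and 4.41% (4.36 to 4.47%) in the KO library, and granular convoluted tubule-like cells, the source of salivary kallikreins, 8.21 and 11.8%. Red cell-like barcodes had 8.59 and 6.69%. Luminal duct-like cells were also low, with 12.6% (35 cells) and 10.3% (16 cells), but held few such transcripts (6.80 and 2.77%). Marker genes of secretory and red cells held 79.0 and 75.4% of the UMIs of Mucl2 acinar-like cells. When these marker genes were taken out of the denominator, the ribosomal protein share of Mucl2 acinar-like cells was 17.8% in the WT and 17.9% in the KO library, next to the WT intercalated duct-like share of 18.2% on the same scale, and that of red cell-like barcodes 23.5 and 18.8%. The granular convoluted tubule-like share stayed low at 11.5 and 14.05%. Basal duct-like cells, with 1.95 and 0.728% of such UMIs, were nearly unaffected at 33.6 and 26.0%.

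Between the libraries, the ribosomal protein share over all kept cells was 0.933 times as high in the KO as in the WT library (0.931 to 0.936). The mix of classes enters this value: basal duct-like cells were 393 of the 1663 kept WT cells and 111 of the 2423 kept KO cells. Within classes that had at least 50 cells in both libraries, the ratio was below 1 in 3 and above 1 in 3, with a median of 1.02. It was 0.784 (0.778 to 0.789) in basal duct-like, 0.915 (0.905 to 0.925) in endothelial-like and 0.960 (0.947 to 0.972) in ionocyte-like cells. It was 1.09 (1.08 to 1.09) in intercalated duct-like, 1.2 (1.19 to 1.21) in Smgc acinar-like and 1.43 (1.42 to 1.45) in granular convoluted tubule-like cells. In smaller classes it was 0.851 in myoepithelial-like cells (47 WT and 85 KO cells) and 1.18 in Mucl2 acinar-like cells (157 and 30).

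The cells behind these ratios did not group by class alone. When both libraries were clustered together, 382 of the 393 WT basal duct-like cells lay in a cluster of 397 WT and 2 KO cells led by Ptn, Krt15 and Ucma, and 99 of the 111 KO ones in a cluster of 6 WT and 276 KO cells led by Sbpl, Ctsl and Myc, which the marker rule named luminal duct-like. Of the 158 WT granular convoluted tubule-like cells, 123 lay in a cluster of 124 WT and 7 KO cells led by Klk1b22, Klk1b16 and Egf, and 423 of the 437 KO ones in a cluster of 16 WT and 443 KO cells led by Crisp3 and Pcp4l1. Intercalated duct-like cells were likewise split, with 213 of 240 WT and 245 of 292 KO cells in separate clusters. Of the 67 WT endothelial-like cells, 37 fell into a cycling-like cluster and 17 into the endothelial-like cluster that held 315 of the 326 KO ones. Smgc acinar-like cells shared a cluster more than these classes did (188 of 279 WT and 136 of 140 KO cells). Of the 58 WT ionocyte-like cells, 22 and 14 lay in ionocyte-like clusters that held 180 and 104 of the 289 KO ones. Another 9 WT ionocyte-like cells lay in the basal duct-like cluster. A difference within a class may therefore be one between different cells, and genotype, library and cell state cannot be told apart.

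**Figure D2:**
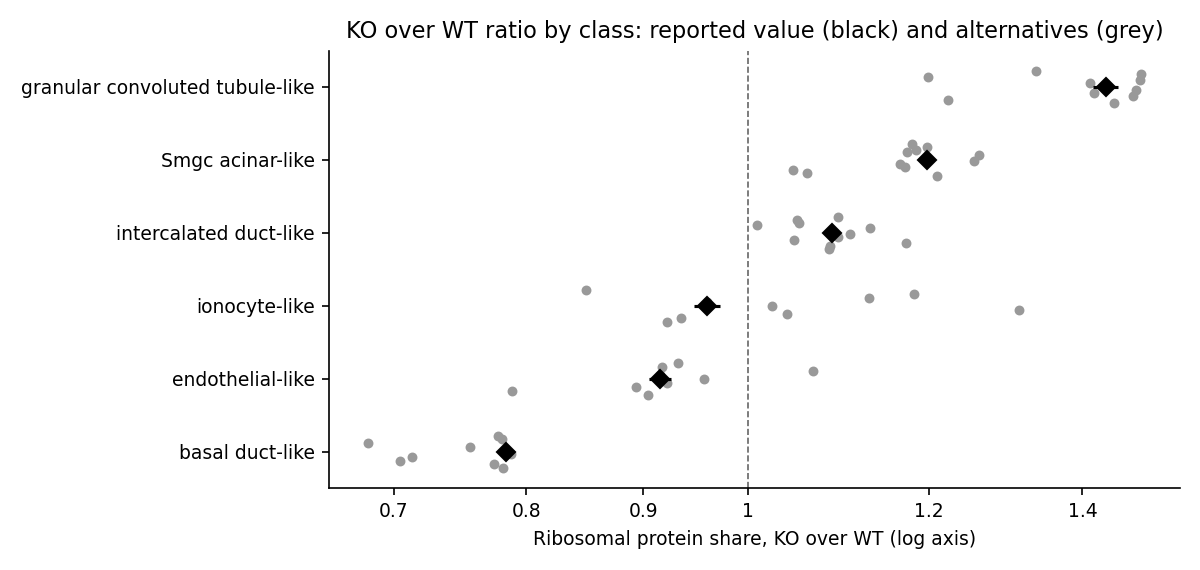
Ribosomal protein share in the KO over that in the WT library (x axis, log scale) for the 6 compared classes (y axis); black diamonds are the reported ratios with 95% Poisson intervals and grey points the values under other processing choices. Every basal duct-like value lies below 1, from 0.682 to 0.787, and every granular convoluted tubule-like value above 1, from 1.2 to 1.49, while ionocyte-like values fall on both sides.

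The directions held under other processing to different degrees. All 10 alternatives that gave a basal duct-like value put it below 1, and all that gave a value for Smgc acinar-like, granular convoluted tubule-like or intercalated duct-like cells put it above 1. The endothelial-like ratio ran from 0.788 to 1.07 and was above 1 in 1 of 9 alternatives, the ratio of medians over cells. Secretory and red cell marker genes held 15.3% of UMIs in WT and 1.70% in KO endothelial-like cells. Without them the ribosomal protein shares of this class were 23.9 and 18.8%. For ionocyte-like cells 5 of 9 alternatives put the ratio above 1. The ionocyte-like KO cells came from 2 clusters with shares of 20.3% (180 cells) and 12.4% (109 cells), on either side of the WT value of 17.5%.

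No member passed the 2-fold size rule as lower in the KO over all kept cells, where 2.33% of all 10272 genes tested did, and 1 of 84 passed as higher, Rps27rt, where 7.25% of all genes did. The median log2 ratio over these 84 members was −0.18, against 0.21 over all genes tested. In this and later medians 10 CPM were added to both libraries. That shrinks the ratios of rare genes more than those of abundant members, so the medians are not fully like for like. In 63 of the 84 the ratio was below 1, against 30.5% of all genes. Intervals lay wholly below 1 for 58 members and wholly above 1 for 18, where 16.2 and 49.1% of all genes did so. At 1.5-fold 0 members were lower and 5 higher (Rps27, Rps27rt, Rpl38, Rps29 and Rps28), against 4.83 and 17.0% of all genes.

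Basal duct-like cells had the lowest KO over WT ratio of the 6 compared classes, between cells that lay in different clusters when the libraries were clustered together. The 2 WT clusters of this class had shares of 35.3 and 30.6% and the single KO cluster 25.8%, so the KO cluster lay below both. Cell by cell the quartiles were 28.5 and 37.6% in WT and 23.1 and 28.8% in KO cells, so the upper KO quartile lay just above the lower WT quartile. Median mitochondrial shares were 4.49 and 4.6% and median UMIs 3307 and 2435. Among cells with under 5% mitochondrial UMIs the KO over WT ratio was 0.756, and among those with 5 to 10% it was 0.838. In each of 3 ranges of depth, set to hold equal numbers of all kept cells, the KO share (25.6 to 26.3%) was below the WT share (32.0 to 33.3%); the shallowest range held 11 WT cells. Trp63 itself had 90 UMIs in WT and 4 in KO basal duct-like cells.

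Most members were lower in this class. Of the 84 members tested in basal duct-like cells, 74 had a ratio below 1, against 48.3% of all 3917 genes; the interval lay below 1 for 69 members and above 1 for 6, against 16.8 and 17.8% of all genes. The median log2 ratio was −0.40 for the members and 0.02 for all genes tested. None passed the 2-fold rule in either direction, where 1.81% of all genes passed as lower and 1.48% as higher. At a 1.5-fold threshold 8 members were lower, namely Rpl7a, Rplp1, Rpl41, Rpl15, Rps12, Rpl23a, Rps4x and Rps9, and 1, Rps27rt, was higher, against 4.52 and 4.37% of all genes; these are named after their values were seen.

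The large subunit stalk, which recruits elongation factors, is built from Rplp0, Rplp1, Rplp2 and Rpl12. In basal duct-like cells Rplp1 stood at 4698 CPM in the WT and 2434 in the KO library, a ratio of 0.518 (0.481 to 0.557). Rplp2, its dimer partner, stood at 3576 and 3183, a ratio of 0.890 (0.832 to 0.951). Rplp1 and Rplp2 thus differed by unequal amounts, and Rplp0, on which they sit, lay between them with 7419 and 5434 CPM (0.732). Rpl5 and Rpl11, which form a particle with 5S rRNA, also differed from each other. Rpl5 was level with 1203 and 1211 CPM (ratio 1.01, 0.901 to 1.12) and Rpl11 lower with 3409 and 2626 (0.770, 0.716 to 0.828). Of these 6 members, 5 had a ratio below 1 and the median log2 ratio was −0.36.

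All 9 members grouped here under the mRNA channel and head of the small subunit had a ratio below 1, with a median log2 ratio of −0.57. Of all 84 members tested, 74 did. The group was chosen with earlier results known and is only part of the small subunit. It leaves out Rps28, at the mRNA exit, as well as Rps29 and Rps27, which were all higher in KO cells. That all 9 lay below 1 is thus no trait of this region. Rps2, at the mRNA entry, stood at 4039 and 2726 CPM (ratio 0.675), Rps3 at 4431 and 3110 (0.702), and Rps6, the substrate of S6 kinase, at 5205 and 3773 (0.725). The lowest of them was Rps12, with 2399 and 1351 CPM (0.563, 0.509 to 0.622), and Rpsa, also known as the laminin receptor, had 2599 and 1625 (0.625). Around the exit tunnel, through which the new chain leaves, 8 of 9 members had a ratio below 1 and the median log2 ratio was −0.41. Rpl23a stood at 4474 and 2699 CPM (0.603, 0.562 to 0.647) and Rpl39 at 4007 and 2717 (0.678).

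Against this, 6 members had more CPM in KO than in WT basal duct-like cells beyond their interval. Rps27 stood at 7350 CPM in WT and 10990 in KO cells (1.5, 1.44 to 1.55), Rps28 at 3679 and 5513 (1.5, 1.42 to 1.58), and Rps29 at 4154 and 5790 (1.39, 1.32 to 1.47). Rpl38, a large subunit protein tied to axial skeleton patterning in mouse mutants, stood at 1980 and 2677 (1.35, 1.25 to 1.46). Rpl36 (1.21) and Rps27rt (2.21) completed the 6. All 6 recur among the members described below.

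In granular convoluted tubule-like cells, which also lay in different joint clusters by library, most members were higher. The ratio was below 1 for 1 of 83 members, against 41.3% of all genes, and the interval lay below 1 for 0 and above 1 for 76, against 12.1 and 21.9% of all 3214 genes, with a median log2 ratio of 0.48 for members and 0.12 for all genes. Past 2-fold, 3 members were higher (1.87% of all genes) and 0 lower (1.31%). They were Rpl38 (813 CPM in WT and 1913 in KO; ratio 2.35, 2.09 to 2.66), Rps28 (890 and 2049; 2.30, 2.05 to 2.59) and Rpl6l, with 11 UMIs in WT and 109 in KO (3.99, 2.14 to 8.22). Secretory and red cell marker genes held 28.5% of UMIs in WT and 16.2% in KO cells of this class; without them the shares were 11.5 and 14.05%. Both KO clusters, at 12.5 and 10.4%, lay above the single WT cluster at 8.21%.

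Smgc acinar-like cells, which make the submandibular gland protein C, had 62 of 83 members with intervals above 1 and 5 below, against 28.1 and 20.7% of all 3046 genes. The median log2 ratio was 0.22 for members and 0.09 for all genes. Only Rps27rt passed 2-fold, as higher, with 249 and 865 CPM (3.47, 2.97 to 4.05), against 4.99% of all genes higher and 2.82% lower. Rplp1 went the other way with 3840 CPM in WT and 2751 in KO cells (0.716, 0.673 to 0.763), while Rplp0 had 3752 and 5148 (1.37) and Rplp2 2070 and 2567 (1.24). Rps27l, a p53-inducible paralogue of Rps27, was also lower, with 1459 and 914 CPM (0.627, 0.562 to 0.698). Secretory and red cell markers held 27.3 and 17.97% of UMIs in this class, and their part in the difference was not tested beyond the shares without them, 28.8 and 30.6%.

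In the other compared classes members lay on both sides of 1. Intervals were below 1 for 50 and above 1 for 10 of 82 members in endothelial-like cells (12.3 and 26.5% of 2228 genes), and the same counts were 32 and 15 of 83 in ionocyte-like cells (12.9 and 14.4% of 2350) and 13 and 40 of 84 in intercalated duct-like cells (23.6 and 19.4% of 5237). Past 2-fold the endothelial-like cells had 0 members lower and 1 higher, Rps27rt (317 and 974 CPM, 3.07), where 1.62 and 3.68% of genes passed. Intercalated duct-like and ionocyte-like cells had 0 in either direction, where 2.25 and 1.60%, and 1.02 and 1.06%, of genes passed as lower and higher.

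Members also differed relative to one another. To see this apart from the total, each member was expressed as a share of all ribosomal protein UMIs. Of 82 members tested in all 6 compared classes, 9 had an interval above 1 in each class and 2 an interval below 1 in each, while 3.0 and 2.38% of the 1468 genes tested in all 6 classes did so on this scale. The 9 were Rps27rt, Rps28, Rpl38, Rps29, Rps27, Rpl36, Rpl30, Rpl35 and Rpl37, and the 2 were Rpl23a and Rpl7. A count of 2 of 82 lies near the share over all genes and does not set the members apart. Both the 9 and the 2 are named after their values were seen. Most members hold many UMIs, so small ratios suffice: the lowest class ratio was 1.08 for Rpl37 and 1.10 for Rpl30. The share over all genes, many of them rarer, is thus an unlike baseline for the 9. The 6 classes within a library share depth, free RNA and library preparation and are not independent.

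**Figure D3:**
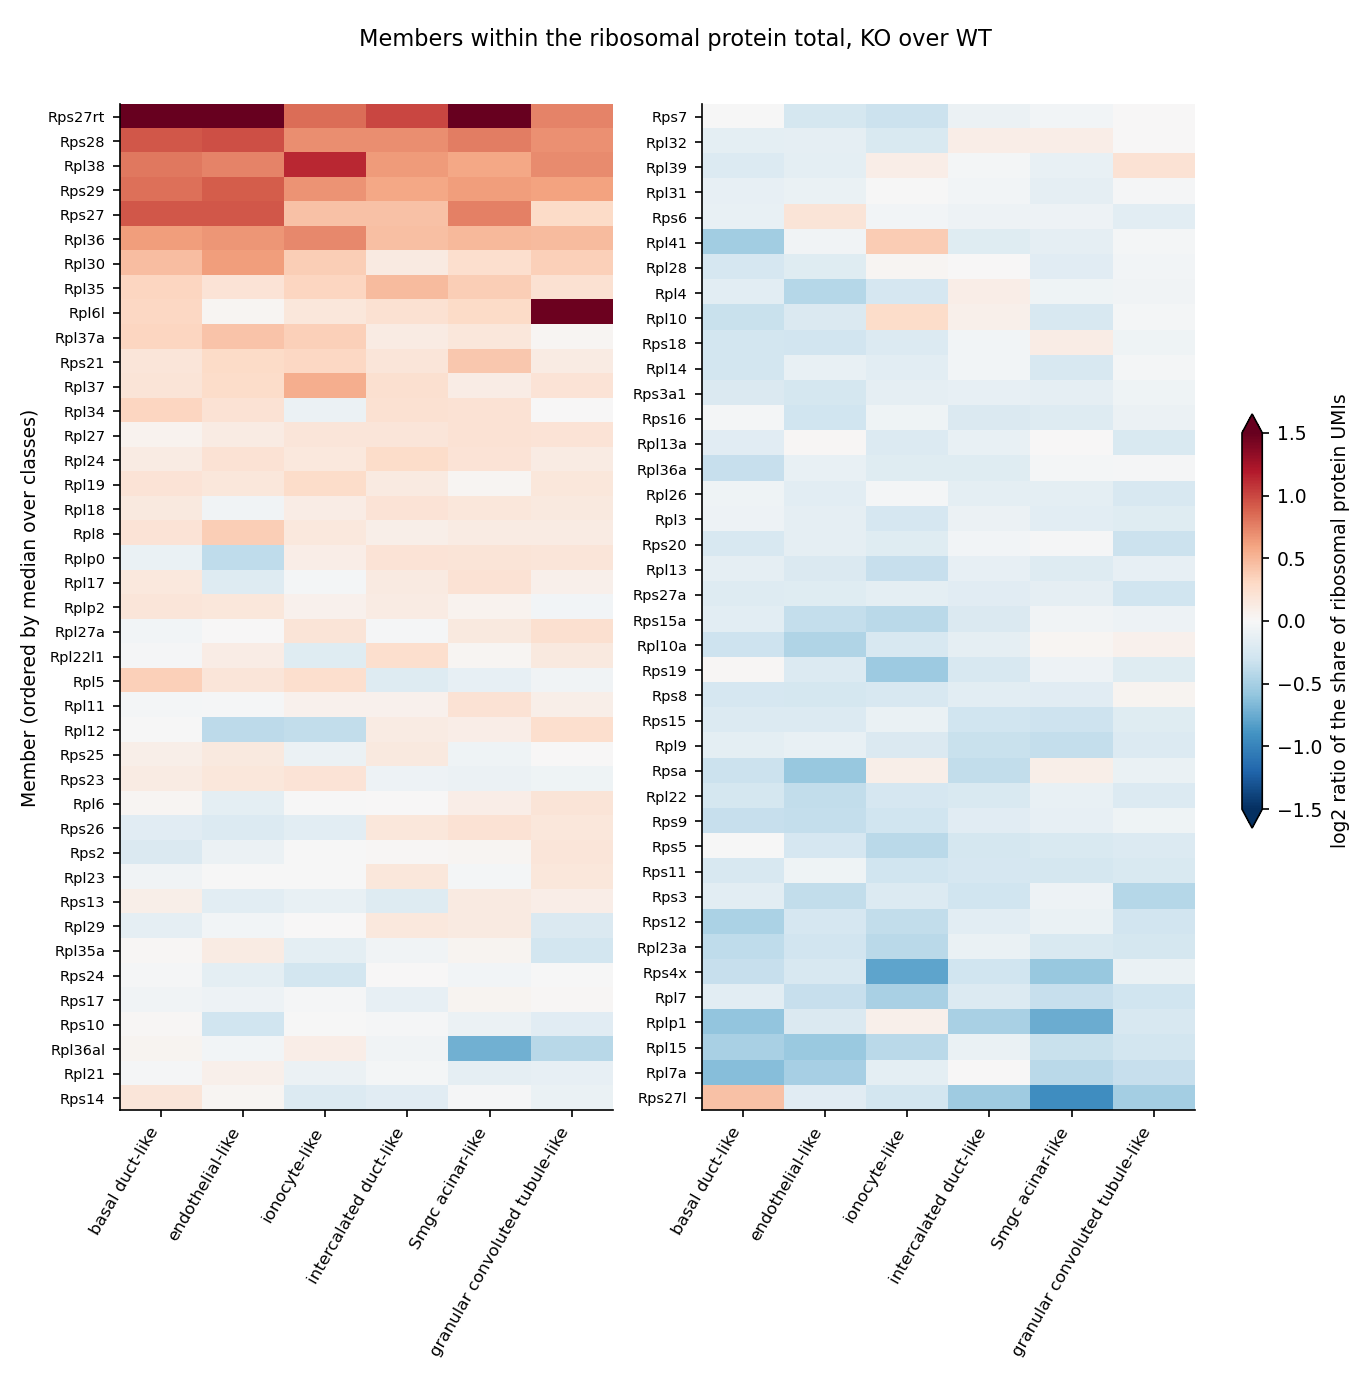
Log2 ratio (KO over WT) of each member's share of ribosomal protein UMIs in the 6 compared classes (columns) for 81 of the 82 members tested in all of them (rows, ordered by their median, continued in the right panel); red is higher in the KO library, blue lower, and colours end at ±1.5. Rps27rt, Rps28, Rpl38, Rps29, Rps27 and Rpl36 are red in every column, and Rpl7 and Rpl23a blue in every column.

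Rps28, a small subunit protein at the mRNA exit, held 1.02% of ribosomal protein UMIs in kept WT and 1.78% in kept KO cells. Its KO over WT ratio on this scale ran from 1.61 to 1.96 over the 6 classes, with a median of 1.66. For Rpl38 the shares were 0.725 and 1.29%, with class ratios from 1.49 to 2.18. Both were higher within the total in every compared class, including the 3 whose total share was lower. Rps29, a zinc-binding small subunit protein, had 1.48 and 2.69% (class ratios 1.5 to 1.88), Rps27 2.24 and 3.87% (1.22 to 1.91), and Rpl36 1.10 and 1.68% (1.37 to 1.65). Rps27rt had 0.160 and 0.422% (1.68 to 3.35) but cannot be separated from Rps27 with certainty.

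At the other end, Rpl7 held 0.927% in WT and 0.744% in KO cells, with class ratios from 0.712 to 0.893, and Rpl23a 1.28 and 1.03%, with 0.757 to 0.931. Both belong to the large subunit. Rps4x, the X-linked copy of a small subunit gene, had 1.62 and 1.19%, with class ratios from 0.580 to 0.934, and an interval below 1 in 5 of 6 classes. On this scale 1 member, Rps27rt, passed 2-fold over all kept cells, against 10.7% of all genes in either direction. At 1.5-fold there were 5, against 25.1% of all genes, and Rps27, Rps28, Rps29 and Rpl38 were the others. By class, Rps27rt passed 2-fold on this scale in Smgc acinar-like (2.90), basal duct-like (2.82) and endothelial-like cells (3.35), where 8.11, 4.72 and 6.01% of all genes passed. No member did in granular convoluted tubule-like, intercalated duct-like or ionocyte-like cells, where 4.36, 4.35 and 2.21% of genes did.

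The members that stood above the rest in every class were short. Their coding lengths ran from 171 to 372 bases (median 255). Rpl23a and Rpl7 had 471 and 813 bases, but 2 genes, a count near the share over all genes, allow no comparison of lengths. Across the 83 members with a coding length and enough UMIs, Spearman's rho between length and the log2 ratio over all kept cells was −0.51 and Pearson's r −0.53. In the compared classes rho ran from −0.26 to −0.51. Across the other 9969 genes it was 0.14, and the 234 other genes with coding sequences under 300 bases had a median log2 ratio of 0.01, against 0.21 for the longer ones; for members those medians were 0.42 (11 members) and −0.21 (72). With the length of the whole transcript, rho across members was weaker, −0.31 over all kept cells. In the compared classes it ran from −0.18 (intercalated duct-like) to −0.38 (endothelial-like). These are correlations across genes, which share libraries and are not independent replicates.

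**Figure D4:**
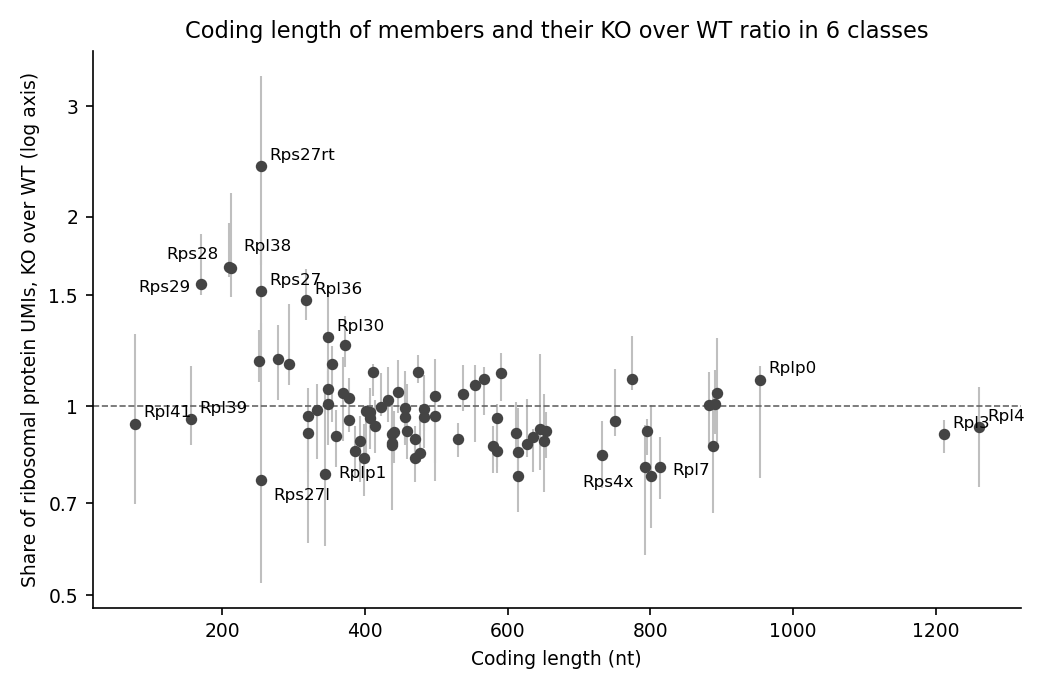
Coding length (x axis, bases) against the KO over WT ratio of the share of ribosomal protein UMIs (y axis, log scale); points are medians over the 6 compared classes and lines run from the lowest to the highest class. Rps28, Rpl38, Rps29, Rps27 and Rps27rt lie above 1.2 in every class, while Rpl41, Rpl39 and Rps27l are as short but have medians below 1.

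Short coding sequences did not all go this way. Rpl41, the shortest member, held 3.04% of ribosomal protein UMIs in WT and 2.96% in KO cells, and Rpl39, with 156 coding bases, 1.14 and 1.11%. The 12 members with coding sequences under 300 bases, a limit set after the values were seen, together held 14.1% of ribosomal protein UMIs in WT cells (14.08 to 14.20%) and 19.4% in KO cells (19.3 to 19.5%). In the 6 compared classes this share ran from 12.7% (basal duct-like) to 16.5% (intercalated duct-like) in the WT library and from 17.2% (Smgc acinar-like) to 20.8% (ionocyte-like) in the KO library, so the libraries did not overlap. Over all classes of at least 15 cells, 13 in WT and 15 in KO counting the unnamed one, the WT range reached 17.5% in luminal duct-like cells and overlapped with the lowest KO classes. Without Rps27 and Rps27rt the shares over all kept cells were 11.7 and 15.1%, and the compared classes overlapped, from 10.3 to 13.7% in WT and from 12.6 to 16.9% in KO cells.

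Combinations of compared class and mitochondrial range with at least 20 cells in both libraries numbered 14. The short members' share was higher in the KO library in 14 of 14, with KO over WT ratios from 1.16 to 1.49. This outcome was largely fixed beforehand, since the length limit was set after the values were seen. The short members include Rps27, Rps27rt, Rps28, Rps29, Rpl38 and Rpl37, already higher within the total in every compared class. The combinations divide the same cells of the same libraries and are not independent, so the count is no separate support. Over all kept cells the short members' share was 13.9 and 18.9% under 5% mitochondrial UMIs and 15.3 and 20.5% at 15 to 20%. In barcodes left out it was 16.2 and 21.2% at 20 to 40%, 15.8 and 22.1% at 40 to 60%, and 17.7 and 22.05% above 60%. These ranges held 183, 38 and 23 WT and 1017, 443 and 464 KO barcodes, which are not all of those left out. By range of depth it was 14.1 to 14.2% in WT and 19.3 to 19.6% in KO cells. Genotype and library preparation cannot be told apart with 1 library each.

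**Figure D5:**
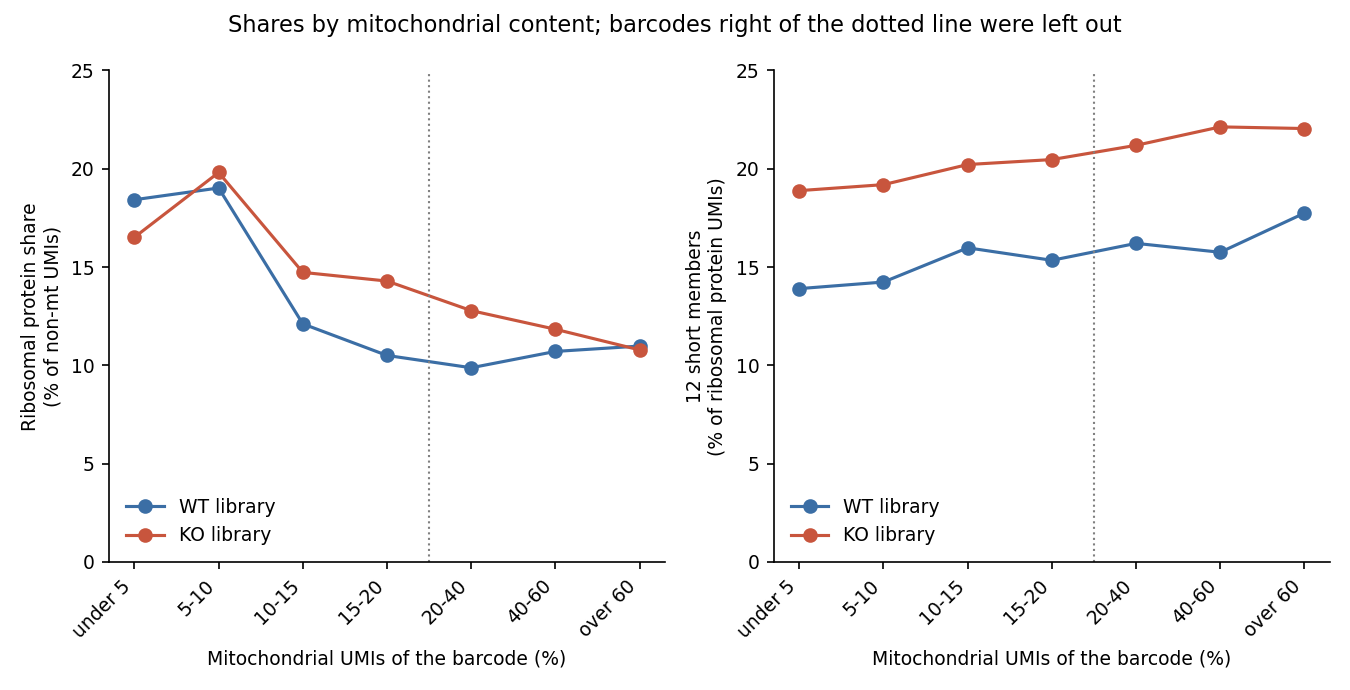
Ribosomal protein share of non-mitochondrial UMIs (left, %) and share of ribosomal protein UMIs held by the 12 short members (right, %) by mitochondrial share of the barcode (x axis) in the WT and KO libraries. Barcodes right of the dotted line were left out and are not all of those left out. On the left the libraries cross, with 18.4% in WT and 16.5% in KO cells under 5% and 10.5 and 14.3% at 15 to 20%, and on the right the KO library lies above the WT library in each range.

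The total share crossed between the libraries over the same ranges. Under 5% mitochondrial UMIs the KO over WT ratio over all kept cells was 0.896, at 5 to 10% 1.04, at 10 to 15% 1.22 and at 15 to 20% 1.36. The class mix differs between these ranges: granular convoluted tubule-like cells had median mitochondrial shares of 13.9% in WT and 13.2% in KO cells, and basal duct-like cells of 4.49 and 4.6%. Within compared classes the ratio was below 1 in 4 of the 14 combinations, which were those of basal duct-like and endothelial-like cells, and above 1 in 10.

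Members also varied across the cell classes of a library. Over classes of at least 50 cells, the highest over the lowest class had a median of 1.39 in the WT and 1.60 in the KO library over 83 members, and exceeded 2 in both libraries for 4. Ordered by the smaller of their ranges in the 2 libraries, Rpl36al, a paralogue of Rpl36a, came first: it held 0.989% in Mucl2 acinar-like and 0.220% in endothelial-like WT cells, and 0.608% in granular convoluted tubule-like and 0.173% in NK or innate lymphoid-like KO cells. Rps27l held 1.04% in Mucl2 acinar-like against 0.172% in basal duct-like WT cells, a 6.02-fold range, and 2.24-fold in the KO library. Both were thus highest in secretory classes.

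Rplp1 and Rpl10 were the other 2. Rplp1 held 3.07% in granular convoluted tubule-like and 1.42% in endothelial-like WT cells, and 2.75% in ionocyte-like and 0.943% in basal duct-like KO cells. Rpl10, which joins the large subunit late in its assembly, held 2.193 and 2.16% in granular convoluted tubule-like cells of the WT and KO libraries, 1.08% in cycling-like WT cells and 0.790% in NK or innate lymphoid-like KO cells. Rps29 ranged 1.91-fold and 1.98-fold, highest in macrophage-like WT (2.41%) and in the KO Ccl4 and S100a8 cluster (4.16%).

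Paralogues of members were mostly rare. Rpl3l, a muscle paralogue of Rpl3, had 0 UMIs in WT and 5 in KO cells, and Rpl39l, found in testis, 1 and 5, so no fold is given. Rpl22l1 had 920 CPM in WT and 907 in KO cells (ratio 0.985, 0.951 to 1.02), Rpl36al 764 and 649 (0.850, 0.816 to 0.884) and Rps27l 693 and 514 (0.742, 0.710 to 0.776). None of the 4 paralogues with enough UMIs passed 2-fold over all kept cells. In basal duct-like cells Rps27l was level, with 567 and 602 CPM (1.06, 0.906 to 1.24), where its parent Rps27 was at 1.5.

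Fau and Rack1, ribosomal proteins that the symbol rule misses, were examined with the same measures. Fau, a ubiquitin-like fusion that encodes the small subunit protein eS30, had 1728 CPM in WT and 2104 in KO cells (1.22, 1.19 to 1.25). Rack1, a scaffold on the small subunit, had 713 and 631 (0.884, 0.849 to 0.921). In basal duct-like cells their ratios were 1.11 and 0.722. Neither passed 2-fold.

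The profile of the ribosomal protein share over 19 class and library combinations was compared with 3014 other genes by Pearson's r on log2 values, as a description without a test. The combinations of 1 library share its depth and free RNA. Eef1a1, the main elongation factor that brings aminoacyl-tRNA to the ribosome, was most alike with r = 0.985. Gm10036 (0.984), Rpl23a-ps3 (0.981) and Gm9493 (0.967) followed, then the initiation factor 3 subunits Eif3e (0.960) and Eif3h (0.956), the elongation factor subunit Eef1b2 (0.954), Rps18-ps3 (0.947), Rpl13-ps3 (0.944) and the spliceosomal protein Snrpf (0.944). Pseudogene tags can be reads of the parent gene. The median r was 0.36, and 26 genes exceeded 0.9.

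Elongation factors and other transcripts of the TOP class numbered 15. Over all kept cells 1 was lower past 2-fold and 0 higher, against 2.33 and 7.25% of all genes. It was Eef1g, a subunit of the exchange complex for the elongation factor, with 706 CPM in WT and 266 in KO cells (0.376, 0.356 to 0.398). In basal duct-like cells 4 of 15 were lower and 0 higher, against 1.81 and 1.48% of all genes. They were Eef1g (1454 and 408 CPM; 0.280, 0.234 to 0.334), Hnrnpa1 (555 and 173; 0.313), Eef1d (427 and 143; 0.335) and Npm1, a nucleolar chaperone (1333 and 481; 0.361). Eef1a1 itself had 5504 and 4807 CPM there (0.873, 0.827 to 0.922), and the median log2 ratio of the 15 was −0.40, the same as for the members. Tpt1 had 1903 and 2285 CPM (1.201, 1.11 to 1.3017) and Eef2 1917 and 2036 (1.06, 0.975 to 1.16), so the list held ratios on both sides of 1.

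Among 28 initiation factors 0 passed 2-fold in either direction over all kept or basal duct-like cells, and the median log2 ratios were 0.10 and −0.12. Of all genes, 2.33 and 7.25% passed as lower and higher over all kept cells. Eif1, the most abundant, had 2443 CPM in WT and 3295 in KO basal duct-like cells (1.35, 1.26 to 1.44), and Eif3h 661 and 660 (0.999, 0.859 to 1.16). Of 32 ribosome biogenesis genes 21 had enough UMIs in basal duct-like cells, of which 1 was lower and 1 higher, against 1.81 and 1.48% of all genes. The lower was Npm1. The higher was Myc, a transcription factor that drives ribosome production, with 145 and 472 CPM (3.26, 2.63 to 4.02). Ncl, or nucleolin, had 547 and 396 (0.723, 0.596 to 0.871). Over all kept cells 0 of 31 passed, with a median log2 ratio of 0.08.

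Mitochondrial ribosomal proteins, which serve a separate ribosome, had 1 of 59 lower and 0 higher in basal duct-like cells, against 1.81 and 1.48% of all genes. It was Mrps15 with 84 and 3 UMIs (0.164, 0.033 to 0.497), and the median log2 ratio of the list was −0.27. Over all kept cells 1 of 77 was lower, against 2.33% of all genes. That was Mrpl36, with 62.6 and 19.97 CPM (0.319, 0.260 to 0.389), and the median of the list was −0.07. Among TOR pathway and stress regulators of translation, 3 of 21 were higher and 0 lower over all kept cells, against 7.25 and 2.33% of all genes. Ddit4, a stress-induced TOR inhibitor, had 55.4 and 185 CPM (3.34, 2.98 to 3.74), Sesn1, another inhibitor, 27.2 and 103 (3.77, 3.21 to 4.43), and Mtor, the kinase itself, 8.41 and 23.8 (2.83, 2.09 to 3.86). In basal duct-like cells 0 of those 10 tested passed, and Ddit4 had 53.6 and 113 CPM (2.101, 1.38 to 3.14).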

How the data were processed

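The authors deposited a count of UMIs for each gene in each barcode, not normalized. Seurat 3.1.2, bcl2fastq 2.19.1, Cell Ranger 2.1.0 and build mm10 are listed, per the submitters' processing notes, which give no roles. The rule that chose the deposited barcodes, the annotation and the handling of reads that match several places are not given in the sources used here, which bears on Rps27 and Rps27rt. Symbols came from GENCODE M21 for 27645 identifiers, and 353 kept their identifier. Depth after filtering was a median of 3406 (WT) and 2088 (KO) UMIs.

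Cells were scaled to 10000 UMIs and log-transformed, and 2000 variable genes, 30 components and 15 neighbours were used with scanpy 1.11.5 and leidenalg 0.10.2 at resolution 1. A class name needed 3 markers 2-fold higher, from 24 marker sets. Scrublet called 1 WT and 4 KO doublets, under 0.5% and so not informative. UMIs were summed per class and library. Median log2 ratios, and the log2 ratios set against length, had 10 CPM added to both libraries. So did the log2 levels compared for likeness. The size rule was tested on simulated Poisson counts. These hold no spread between libraries or cells, so the test checked only the working of the rule. Members, lists and classes were chosen with earlier results of these data known. Named members were the 6 with most and 4 with fewest UMIs, those past the size rule, the 6 with the widest range over classes and members of the functional lists. Other genes were the 4 with most UMIs of each list, those past the size rule and the 10 most alike in profile; examples were taken from these. Some genes that this rule names are not reported here. Alternatives used edgeR 4.0.16 (TMM) and scipy 1.17.1.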

Additional observations from a re-analysis of the deposited data

Results flagged for a closer look

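The direction of the ribosomal protein share differed between cell classes under the same contrast, and the difference was not tested, since there is 1 library per genotype. The KO over WT ratio was 0.784 in basal duct-like, 0.915 in endothelial-like and 0.960 in ionocyte-like cells, and 1.09 in intercalated duct-like, 1.2 in Smgc acinar-like and 1.43 in granular convoluted tubule-like cells.

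Barcodes that entered no comparison, because of a mitochondrial share of 20% or more, also held more of the 12 short members in the KO than in the WT library. The ranges below do not take in every barcode left out. The KO over WT ratio of the short members' share of ribosomal protein UMIs was 1.31 at 20 to 40% mitochondrial UMIs, 1.405 at 40 to 60% and 1.24 above 60%.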

How the results depend on the processing

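No paired analysis was possible because each genotype has 1 library. For the same reason no library could be left out. The all-cell ratio of 0.933 was 0.749 with TMM scaling, 0.768 without secretory and haemoglobin genes, 0.833 with no cell filter, 0.877 as a median over cells, 0.883 thinned to 1000 UMIs, 0.907 on all UMIs and 0.951 with a stricter cell filter (500 genes, mitochondrial share below 10%). The median over classes (1.02) was 0.998, the other side of 1, without secretory genes, and above 1 otherwise: 1.004 on all UMIs, 1.01 with members in the clustering, 1.04 with TMM, 1.07 thinned, 1.11 with no filter, 1.12 at resolution 0.5 (4 classes) and 1.116 at 2, 1.13 as a median over cells and with the stricter filter (2 classes), and 1.17 in joint clusters (3 classes). The basal duct-like ratio was 0.682 at resolution 0.5, 0.704 with TMM, 0.713 with no filter, 0.756 as a median over cells, 0.774 without secretory genes and 0.777 with members in the clustering; the stricter filter gave no value, nor did joint clusters, where the basal duct-like cluster held 397 WT and 2 KO cells.

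Counts of members also moved: 0 were higher over all cells with TMM or without secretory genes, and 5 at 1.5-fold. On the ribosomal protein scale there were 5 at 1.5-fold. In basal duct-like cells 8 were lower and 1 higher at 1.5-fold, and 2 lower at resolution 0.5 (Rpl15 and Rpl4). At resolution 0.5 the KO basal duct-like cluster held 308 cells led by Jchain and Krt14, against 111 in the main clustering. That count and the 0.682 ratio thus rest on a larger set of KO cells. No share over all genes was taken with TMM, without secretory genes or at resolution 0.5. Ionocyte-like cells turned to 1.04 (TMM), 1.31 (no filter), 1.02 (thinned), 1.13 (median over cells) and 1.18 (resolution 2), and endothelial-like to 1.07 (median over cells). Within the ribosomal protein total Rpl39 (1.008), Rpl41 (1.024) and Rplp1 (1.02) turned above 1 with no filter and Rps6 (1.002) when thinned. Of 53 class ratios 14 moved by less than their interval, 33 by more and 6 reversed; of 160 values for single members these were 107, 49 and 4. The cause was not tested.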
